A study of Mus musculus with 18 samples.

Results

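The genes described here are 38 genes of mitosis and of the G2 to M transition, taken by symbol from the 55536 genes of the deposited gene count table. All 38 were found under their Ensembl identifiers and had enough counts to be tested in each comparison. By role they comprise 5 genes of CDK1 and its cyclins (Ccna2, Ccnb1, Ccnb2, Cdk1, Cdc25c), 5 mitotic kinases (Plk1, Aurka, Nek2, Ttk, Bub1) and the 4 subunits of the chromosomal passenger complex (Aurkb, Incenp, Birc5, Cdca8). A further 8 act at the kinetochore or in the spindle checkpoint (Cenpa, Cenpe, Cenpf, Ndc80, Nuf2, Knl1, Bub1b, Mad2l1), and 2 are partners of the anaphase-promoting complex (Cdc20, Ube2c). Another 6 are spindle motors and microtubule proteins (Kif11, Kif15, Kif4, Tpx2, Nusap1, Hmmr), 6 act at the spindle midzone and in cytokinesis (Kif20a, Kif23, Prc1, Ect2, Racgap1, Anln), and 2 shape the chromosomes (Mki67, Top2a).

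RNA sequencing had been done on mouse CD8+ T cells of spleen and lymph nodes of OT-I genotype, in which a transgenic receptor binds SIINFEKL, a peptide of ovalbumin. A first group of 8 libraries was labelled naive and taken at day 0. A second group of 8, labelled control, came from cells given a scrambled sequence, and 2 libraries came from cells labelled as Tra2b knockout. Cells of both latter groups were taken at day 4 after a stimulus of SIINFEKL with anti-OX40 and anti-41BB, antibodies to 2 costimulatory receptors, so scrambled and knockout cells share the OT-I receptor and the stimulus.

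Resting T cells sit outside the cell cycle, and after recognition of antigen they divide in rapid succession. Entry into mitosis is driven by CDK1 with its cyclins. The spindle then captures chromosomes through kinetochores, the anaphase-promoting complex triggers their separation, and the midzone and a contractile ring split the cell. Most of the genes concerned are repressed in resting cells and transcribed in late S, G2 and M phase, so their messenger RNA in a bulk sample is widely used as a readout of cycling cells. In bulk RNA, fewer cycling cells and less RNA per cycling cell cannot be told apart.

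Library totals ran from 68249844 to 86932452 counts in the naive group and from 73735681 to 93972513 in the controls, and the 2 knockout libraries held 79197461 and 93495846. The labels do not say that libraries of a group came from separate animals, so p-values measure only how these libraries vary, which can be technical variation. Of all counts on Trbv segments, the OT-I segment Trbv12-1 took 99.6 to 99.8% in the controls and 99.4 and 99.7% in the knockouts, but 5.95 to 12.4% in the libraries labelled naive. Those 8 libraries did not show the dominance of that segment, and "naive" is used here as their label only. Tra2b itself stood at 361 and 370.5 CPM (counts as a share of the library, scaled between libraries by TMM) in the knockouts. Control 2 was at 338 CPM and the other 7 controls at 440.0 to 525.9 CPM, so both knockouts lay inside the control range through control 2 alone and below all other controls. The labels do not say which part of Tra2b was cut, so the gene's total is no check of the edit.

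All 38 mitotic genes were higher in the stimulated controls than in the libraries labelled naive, and all 38 passed the test (edgeR quasi-likelihood test, Benjamini-Hochberg adjusted p under 0.05 over 17078 genes tested). None of the 8 controls overlapped any of the 8 naive libraries for any of the 38. Among all genes tested, 71.5% were called, 32.5% as higher and 39.0% as lower in the controls, and the groups did not overlap for 42.5%, with 20.0% lying higher in the controls. Over the 38 genes the median change was 1.34, beside -0.08 over all genes tested (log2 fold change). The naive libraries were not empty of these transcripts: their mean was between 32.1% (Aurka) and 59.7% (Racgap1) of the control mean, with a median of 39.4%.

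**Figure D1:**
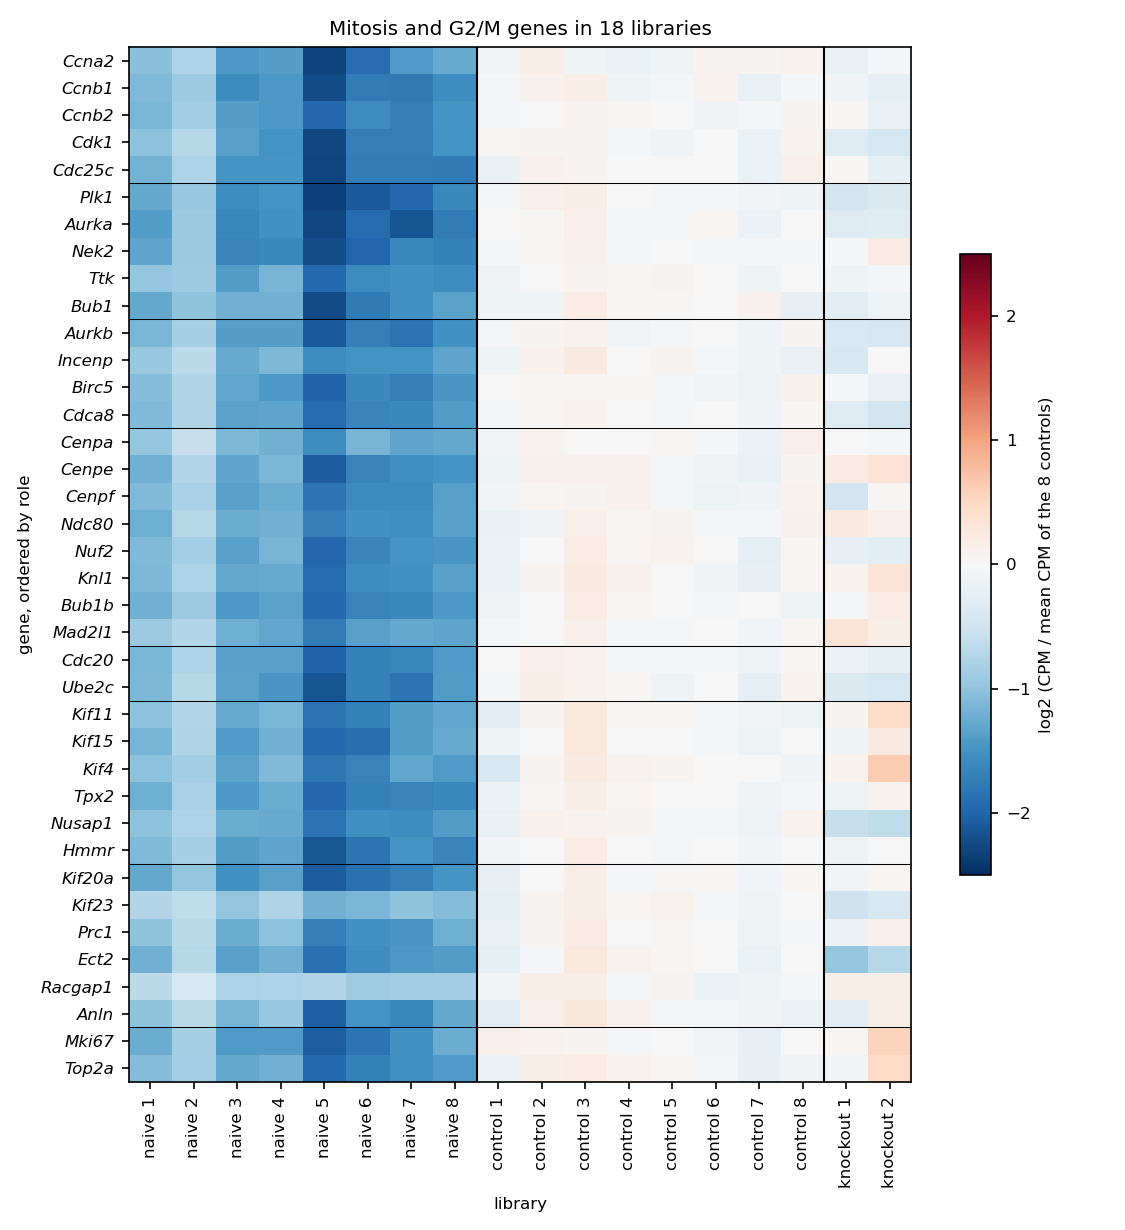
Level of each of the 38 genes (rows, ordered by role, with lines between roles) in each of the 18 libraries (columns) as log2 of its CPM over the mean CPM of the 8 controls. All 8 naive libraries lie below the controls in every row, naive 2 least and naive 5 most in nearly all rows, and Ect2, Nusap1 and Kif23 stand out as low in both knockout libraries.

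Cdk1, the kinase that starts mitosis, is encoded at 69335146 to 69352938 of chromosome 10, minus strand (GRCm38). The naive libraries gave 66.5, 114 and 197 CPM as lowest, median and highest Cdk1 level, and the controls 288, 328 and 342 CPM. It rose by 1.41 ± 0.16 (SE) on the log2 scale, a 2.65-fold difference (edgeR adjusted p = 2.90e-07). Ccnb1, the cyclin B1 that activates it, is encoded at 100778650 to 100786570 of chromosome 13, minus strand (GRCm38). From lowest over median to highest, Ccnb1 was at 126, 200.1 and 317 CPM in the naive group and at 528, 582 and 668 CPM in the controls. Its log2 fold change was 1.49 ± 0.14 (edgeR adjusted p = 3.18e-08). The groups of both genes are separated by a gap wider than the spread within the controls. The other 3 genes of this role, the cyclins Ccna2 and Ccnb2 and the phosphatase Cdc25c that removes inhibitory phosphates from CDK1, rose by 1.37, 1.41 and 1.49 on the log2 scale.

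The 3 largest differences between control and naive belonged to mitotic kinases. Aurka, which matures spindle poles, is encoded at 172356190 to 172370535 of chromosome 2, minus strand (GRCm38). Its lowest, median and highest level was 51.8, 78.3 and 132 CPM in the naive libraries and 228, 252 and 274 CPM in the controls. Its log2 fold change was 1.63 ± 0.15 (edgeR adjusted p = 1.85e-08). Plk1, the polo-like kinase that acts from mitotic entry to cytokinesis, is encoded at 122159439 to 122169873 of chromosome 7, plus strand (GRCm38). The naive libraries gave 89.9, 150.3 and 235 CPM as lowest, median and highest Plk1 level, and the controls 421, 439.8 and 505 CPM. It rose by 1.60 ± 0.15 (edgeR adjusted p = 3.63e-08). Nek2, a centrosome-splitting kinase, is shown next because it had the next largest value. From lowest over median to highest, Nek2 was at 51.5, 76.5 and 125 CPM in the naive group and at 233, 236 and 259 CPM in the controls. Its change was 1.58 ± 0.13 (edgeR adjusted p = 7.21e-09), and its controls were the tightest of all 38 genes, with a highest library 1.12 times the lowest. The checkpoint kinases Ttk and Bub1 rose by 1.34 and 1.40.

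Aurkb, the kinase of the chromosomal passenger complex that corrects faulty attachments, is encoded at 69045647 to 69051664 of chromosome 11, plus strand (GRCm38). Its lowest, median and highest level was 77.3, 122 and 187 CPM in the naive libraries and 307, 327 and 352 CPM in the controls. It rose by 1.43 ± 0.14 on the log2 scale (edgeR adjusted p = 3.34e-08). Its partners Incenp, Birc5 (survivin) and Cdca8 (borealin) rose by 1.19, 1.38 and 1.34. The 8 kinetochore and checkpoint genes rose by 1.12 to 1.41. The low end was Cenpa, the histone H3 variant that marks the centromere. The naive libraries gave 127, 167 and 253 CPM as lowest, median and highest Cenpa level, and the controls 341, 379.8 and 413 CPM. Its change was 1.12 ± 0.10 (edgeR adjusted p = 2.59e-08), after Racgap1 and Kif23 the smallest of the 38. Cdc20 and Ube2c, an activator and a ubiquitin-conjugating enzyme of the anaphase-promoting complex, rose by 1.38 and 1.40.

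The 6 spindle motors and microtubule proteins rose by 1.26 to 1.42 on the log2 scale. The midzone and cytokinesis genes had the widest range, from 0.74 for Racgap1 to 1.49 for Kif20a. Racgap1 and Kif23, which together form centralspindlin, the complex that bundles midzone microtubules, had the smallest changes of the 38. From lowest over median to highest, Racgap1 was at 329, 354 and 449.7 CPM in the naive group and at 549, 592 and 678 CPM in the controls. The change of Racgap1 was 0.74 ± 0.07, or 1.67-fold (edgeR adjusted p = 2.20e-08). The lowest, median and highest level of Kif23 was 85.9, 99.0 and 128 CPM in the naive libraries and 167, 200.4 and 218 CPM in the controls. The change of Kif23 was 0.93 ± 0.08, or 1.90-fold (edgeR adjusted p = 1.36e-08). The naive mean was 59.7% of the control mean for Racgap1 and 52.5% for Kif23, the highest shares of the 38. Ect2, the exchange factor that centralspindlin recruits to start furrowing, rose by 1.31.

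Mki67, the coat protein of mitotic chromosomes known as Ki-67, is encoded at 135689784 to 135716361 of chromosome 7, minus strand (GRCm38). The naive libraries gave 91.9, 144 and 215 CPM as lowest, median and highest Mki67 level, and the controls 333, 381 and 417 CPM. It rose by 1.40 ± 0.13 on the log2 scale (edgeR adjusted p = 2.47e-08). Top2a, the topoisomerase that untangles sister chromatids, is encoded at 98992943 to 99024189 of chromosome 11, minus strand (GRCm38). From lowest over median to highest, Top2a was at 209, 319 and 449 CPM in the naive group and at 702, 804 and 913 CPM in the controls. It rose by 1.33 ± 0.12 (edgeR adjusted p = 2.53e-08). For Mki67 the lowest control stood above the highest naive library by more than the whole range of the controls, and the same held for Top2a.

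**Figure D2:**
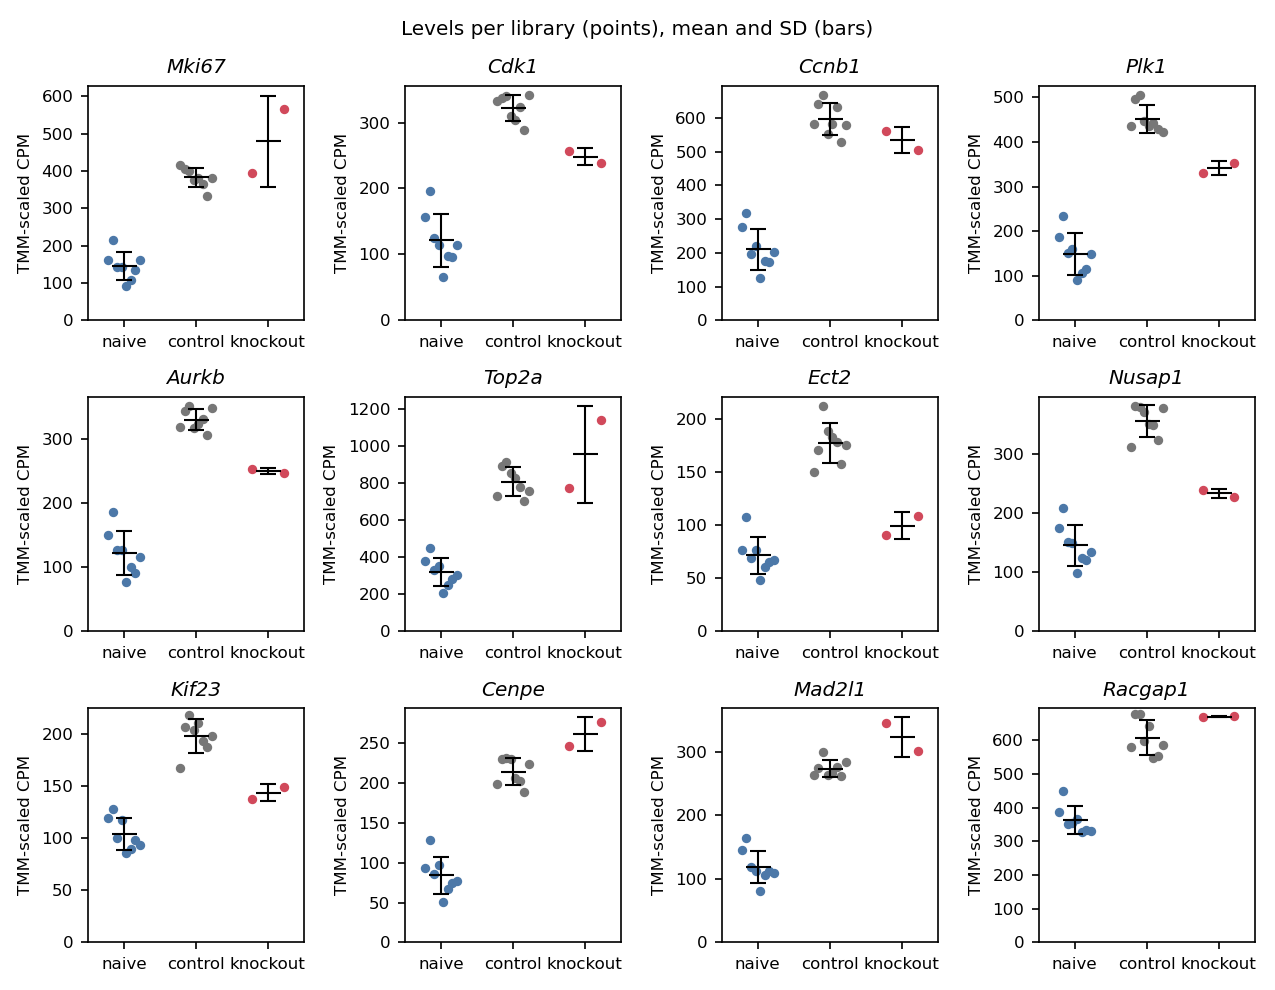
TMM-scaled CPM (vertical axes, from 0) of 12 of the 38 genes in every library, with the mean and SD of each group as bars (8 naive, 8 control and 2 knockout libraries). Controls lie above all naive libraries in each panel, both knockout libraries of Ect2, Nusap1, Kif23, Plk1, Cdk1 and Aurkb lie below all controls, and the knockout libraries of Mki67 and Top2a lie far apart from each other.

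Levels of different genes were compared per kilobase of transcript, using for each gene the length of its annotated transcripts weighted by their counts. On that scale the controls ran from 14.1 CPM per kb for Cenpf, a large kinetochore protein, and 14.4 for Anln, the ring protein anillin, to 443 for Ube2c and 488 for Birc5. Mki67 stood at 38.04 CPM per kb, below Cdk1 at 74.5 and Ccnb1 at 245. The same genes marked the ends in the naive libraries, with 5.59 for Cenpf and 188 for Birc5, and in the knockouts, with 12.2 and 450.4.

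The libraries labelled naive differed among themselves more than the controls did, and the 38 genes moved together. The highest naive library was 1.37 (Racgap1) to 2.96 times (Cdk1) the lowest, with a median of 2.22, and the ratio was at least 2 for 32 of the 38. Among controls the ratio was 1.12 to 1.54, with a median of 1.24, and reached 2 for 0 of the 38. Naive 2 was the highest naive library for 38 of 38 genes, at a median of 1.47 times the group mean. Naive 5 was the lowest for 37 of 38, at 0.656 times the mean, and naive 6 was the lowest for Racgap1. The median Spearman rho between pairs of the 38 genes (703 pairs) was 0.93 over the 8 naive libraries and 0.55 over the 8 controls. All pairs share the same libraries and scaling, so these values describe the libraries and carry no test. Among the controls, control 3 was highest for 27 of the 38 mitotic genes, control 7 lowest for 17 and control 1 lowest for 12.

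Because the 38 genes were higher together, their promoters were examined for the 2 sequence elements best known from G2/M genes: the cell cycle genes homology region (CHR), searched as TTTGAA or TTCGAA, and the CCAAT box bound by NF-Y, searched as CCAAT, each on both strands, where a base may belong to matches of both. RefSeq windows of 300 bases (250 before to 50 after a start, GRCm38.p6) were matched by symbol for 32 of the 38 genes, in 34 windows. The 4 windows printed here are those of the CDK1 and cyclin genes with an entry, plus Plk1. They are written 5′ to 3′ on the gene's strand, with matches in capitals (CCAAT or its reverse complement ATTGG, and TTTGAA). Ccnb1 is at chr13:100786437-100786736 (minus strand), Ccnb2 at chr9:70421505-70421804 (minus), Cdk1 at chr10:69352863-69353162 (minus) and Plk1 at chr7:122159185-122159484 (plus).
Ccnb1: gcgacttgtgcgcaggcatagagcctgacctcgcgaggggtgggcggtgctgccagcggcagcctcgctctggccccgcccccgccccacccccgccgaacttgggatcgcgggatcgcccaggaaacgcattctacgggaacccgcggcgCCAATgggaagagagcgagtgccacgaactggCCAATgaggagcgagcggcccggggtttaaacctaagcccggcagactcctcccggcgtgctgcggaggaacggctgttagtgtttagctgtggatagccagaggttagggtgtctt
Ccnb2: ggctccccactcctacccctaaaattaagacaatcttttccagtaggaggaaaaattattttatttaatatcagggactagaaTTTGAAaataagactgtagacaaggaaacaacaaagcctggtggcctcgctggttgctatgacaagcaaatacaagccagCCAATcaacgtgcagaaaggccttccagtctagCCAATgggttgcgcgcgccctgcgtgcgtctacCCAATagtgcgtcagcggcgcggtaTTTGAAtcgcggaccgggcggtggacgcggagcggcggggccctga
Cdk1: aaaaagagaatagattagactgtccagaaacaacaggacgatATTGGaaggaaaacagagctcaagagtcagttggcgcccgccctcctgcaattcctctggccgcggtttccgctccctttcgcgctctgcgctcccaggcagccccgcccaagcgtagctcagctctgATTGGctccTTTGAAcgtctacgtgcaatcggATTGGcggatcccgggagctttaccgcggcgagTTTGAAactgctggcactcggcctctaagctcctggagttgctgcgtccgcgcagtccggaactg
Plk1: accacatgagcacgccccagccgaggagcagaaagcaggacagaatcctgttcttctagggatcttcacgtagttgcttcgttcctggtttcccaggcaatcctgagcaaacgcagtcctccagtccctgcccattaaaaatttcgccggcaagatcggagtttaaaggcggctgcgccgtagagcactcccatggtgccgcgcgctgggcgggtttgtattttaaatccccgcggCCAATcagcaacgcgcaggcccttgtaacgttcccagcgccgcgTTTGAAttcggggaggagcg

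A CHR match was found in 27 of 34 windows of the mitotic genes (79.4%), against 19.2% of all 32851 windows of the table and 14.7% of the 14122 windows of genes tested in knockout against control. A CCAAT match was found in 26 of 34 (76.5%), against 37.4% and 37.6%. Both were found in 67.6%, against 7.53% and 6.02%. By gene, 25 of 32 held a CHR match, all 25 with a match between 100 bases before and 50 after the start, and 24 held a CCAAT match, 22 of them in that stretch. Ccnb2, Cdk1 and Plk1 held both motifs, while the Ccnb1 window held CCAAT matches and neither CHR word. A match is a run of letters and not a measured binding site.

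Other genes of mitosis, taken from lists by function, were read beside the 38. All 31 other kinetochore and checkpoint genes tested were called higher in the controls, with Bub3, a checkpoint protein, at 0.76 ± 0.06 and Zwint, a kinetochore linker, at 0.47 ± 0.04 on the log2 scale. All 21 other spindle and cytokinesis genes were called higher, among them the spindle pole protein Aspm at 1.49 ± 0.11 and the motor Kif20b at 0.96 ± 0.08. Of 8 condensin genes, whose products compact chromosomes, 7 were higher and 1 lower, with Ncapg at 1.29 and Ncapd2 at 1.22. Of 13 genes of cohesin and separase, 10 were higher and 0 lower. Sgo1, which guards centromeric cohesin, rose by 1.41 and the cohesin subunit Rad21 by 0.89. Of 17 subunits and partners of the anaphase-promoting complex, 16 were higher and 0 lower, with smaller changes (median 0.46), such as 0.95 for Cdc27 and 0.71 for Cdc16. Of 14 regulators of the G2 to M switch 13 were higher and 1 lower, with Bora, a Plk1 activator, at 1.01 and the checkpoint kinase Chek1 at 1.34. Of 16 genes of the transcription complexes that act on G2/M promoters 12 were higher and 1 lower, with Mybl2 (B-Myb) at 1.75 and the histone-binding Rbbp4 at 0.74.

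Set beside other phases of the cycle, the 38 genes had a median of 1.34 and the 31 S phase genes one of 1.18, all 31 called higher. Mcm2 and Mcm4, subunits of the replicative helicase, rose by 1.15 and 1.07. Of 18 tested genes of G1 entry and its inhibitors, 12 were higher and 3 lower (median 0.61). The kinase Cdk4 rose by 0.72 and its cyclin Ccnd2 fell, with a log2 fold change of -1.43. The difference between these medians was not tested.

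Marker lists of other cells also differed between control and naive. The summed level of 6 dendritic cell genes was 45.5 to 122 CPM in the naive libraries and 3.43 to 7.77 CPM in the controls, where Siglech was at 0, with 5 of 5 tested called lower. The sum of 8 B cell genes was 731 to 1176 against 393 to 471.5 CPM, mostly Ighm, with 7 of 7 tested called lower, and that of 5 NK genes was 9.25 to 30.9 against 2.30 to 5.79 CPM, with Klra8 at 0 in the controls. The 8 CD8 T cell genes summed to 7417 to 8887 CPM in the naive libraries, 4943 to 5951 in the controls and 4695 and 5430 in the knockouts, with none of the 8 at 0 in any group. The part of these other cells in the levels of the mitotic genes was not tested.

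In the 2 knockout libraries, 9 of the 38 genes were called lower and 2 higher than in the controls, and 27 were not called (edgeR quasi-likelihood test, adjusted p under 0.05 over 18651 genes tested). Among all genes tested 14.9% were called, 7.24% as lower and 7.62% as higher in the knockouts. The 9 called lower were Ect2, Nusap1, Kif23, Plk1, Aurkb, Ube2c, Cdca8, Cdk1 and Aurka, and the 2 called higher were Cenpe and Mad2l1. The changes were small: from -0.83 for Ect2 to 0.38 for Kif4, which was not called, with a median of -0.07 beside -0.0065 over all genes. Both knockout libraries lay below all controls for 10 of the 38 (the 9 called and Cdc20) and above all controls for 3 (Cenpe, Mad2l1 and Ndc80), where 12.4% and 11.3% of all genes tested did so. Of the 27 not called, 6 had an unadjusted p under 0.05. On simulated counts the gene test missed many 1.5-fold changes in this comparison, so a gene not called may still differ.

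Ect2 had the largest fall. It is encoded at 27097222 to 27153878 of chromosome 3 (GRCm38), and the knockout libraries were at 90.5 and 109 CPM, against a control lowest, median and highest of 150.3, 177 and 212 CPM. Both knockout libraries lay below all controls, and knockout 2 just above the highest naive library of 107 CPM. The log2 fold change was -0.83 ± 0.12 (SE), a level 1.77-fold lower (edgeR adjusted p = 0.00117). Nusap1, a protein that bundles spindle microtubules around chromosomes, had the second largest. Nusap1 was at 239 and 228 CPM in knockouts 1 and 2, against 312, 361 and 381 CPM as the lowest, median and highest control. Both values lay below all controls and above the naive libraries, and the change was -0.60 ± 0.09 (edgeR adjusted p = 0.00138).

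Kif23, the motor of centralspindlin, came next. Kif23 was at 138 and 149 CPM in knockouts 1 and 2, against 167, 200.4 and 218 CPM as the lowest, median and highest control. Again there was no overlap with the controls, and the change was -0.46 ± 0.09 (edgeR adjusted p = 0.00634). Racgap1, its partner in centralspindlin, was at 669.7 and 671 CPM, inside the control range, with a change of 0.15 ± 0.09 that was not called (edgeR adjusted p = 0.289). Of the other 3 midzone and cytokinesis genes, Kif20a (-0.01), Prc1 (-0.0015) and Anln (-0.03) had changes smaller than their SE and were not called.

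Plk1 was the fourth largest fall. Plk1 was at 329.8 and 352 CPM in knockouts 1 and 2, against 421, 439.8 and 505 CPM as the lowest, median and highest control. The change was -0.40 ± 0.08 (edgeR adjusted p = 0.00610), with no overlap. Its partner kinase Aurka stood at 202 and 205 CPM, both below the lowest control of 228 CPM, and fell by 0.30 ± 0.07 on the log2 scale (edgeR adjusted p = 0.0107). The other mitotic kinases Nek2, Ttk and Bub1 were not called, with 0.10, -0.06 and -0.19.

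Within the chromosomal passenger complex, 2 of the 4 subunits fell. Aurkb was at 253 and 247 CPM, against 307, 327 and 352 CPM as the lowest, median and highest control, and fell by 0.39 ± 0.07 on the log2 scale (edgeR adjusted p = 0.00298). Cdca8 was at 285 and 258 CPM, below the lowest control of 333 CPM, with a change of -0.38 ± 0.06 (edgeR adjusted p = 0.00310). Incenp and Birc5 were not called, at -0.17 ± 0.11 and -0.11 ± 0.07.

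Cdk1 was at 257 and 239 CPM, against 288, 328 and 342 CPM as the lowest, median and highest control. Both values were below all controls, and the change was -0.37 ± 0.08, 1.29-fold lower (edgeR adjusted p = 0.00818). Its cyclins were not called: Ccnb1 was at 562 and 506 CPM against 528, 582 and 668 in the controls, which overlap it, with a change of -0.15 ± 0.09 (edgeR adjusted p = 0.277). Ccna2, Ccnb2 and Cdc25c had -0.11, -0.07 and -0.08. Ube2c was at 335 and 317 CPM, below its lowest control of 369, and fell by 0.39 ± 0.09 on the log2 scale (edgeR adjusted p = 0.0162). Cdc20, which hands substrates to the same complex, was at 450.0 and 417 CPM, below all controls (lowest 457), but was not called, with -0.19 ± 0.07 (edgeR adjusted p = 0.115).

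The kinetochore and checkpoint genes held both calls in the other direction. Cenpe, the kinesin that carries chromosomes to the spindle equator, was at 246 and 277 CPM against 188, 215 and 232 CPM in the controls, with no overlap and a change of 0.29 ± 0.09 (edgeR adjusted p = 0.0424). Mad2l1, the MAD2 protein that holds back anaphase, was at 346 and 301 CPM against 262, 269.6 and 299 CPM, also without overlap, with a change of 0.25 ± 0.07 (edgeR adjusted p = 0.0315). Ndc80 and Nuf2, which form a dimer that grips microtubules, had 0.20 and -0.24, and neither was called. Cenpa, Cenpf, Knl1 and Bub1b were not called either, with changes between -0.20 (Cenpf) and 0.22 (Knl1).

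Knockout 2 stood above knockout 1 in the 4 genes described next. Kif4, a chromosome-bound motor, had the largest value of the 38. Kif4 was at 158 and 231 CPM in knockouts 1 and 2, against 114, 152 and 175 CPM as the lowest, median and highest control. Knockout 1 fell inside the control range and knockout 2 above it, and the change of 0.38 ± 0.14 was not called (edgeR adjusted p = 0.0904). Mki67 was at 394 and 566 CPM against 333, 381 and 417 CPM in the controls, with the same pattern and a change of 0.33 ± 0.11 (edgeR adjusted p = 0.0615). Kif11, the motor that pushes spindle poles apart, was at 412 and 536 CPM against 327, 393 and 469 CPM, with 0.28 ± 0.12 (edgeR adjusted p = 0.123). Top2a was at 769.7 and 1136 CPM against 702, 804 and 913 CPM, with 0.24 ± 0.13 (edgeR adjusted p = 0.227). In each of these genes the ratio of knockout 2 to knockout 1 exceeded the ratio of the group means. Kif15, Tpx2 and Hmmr, the other spindle proteins, had 0.07, -0.01 and -0.05 and were not called.

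**Figure D3:**
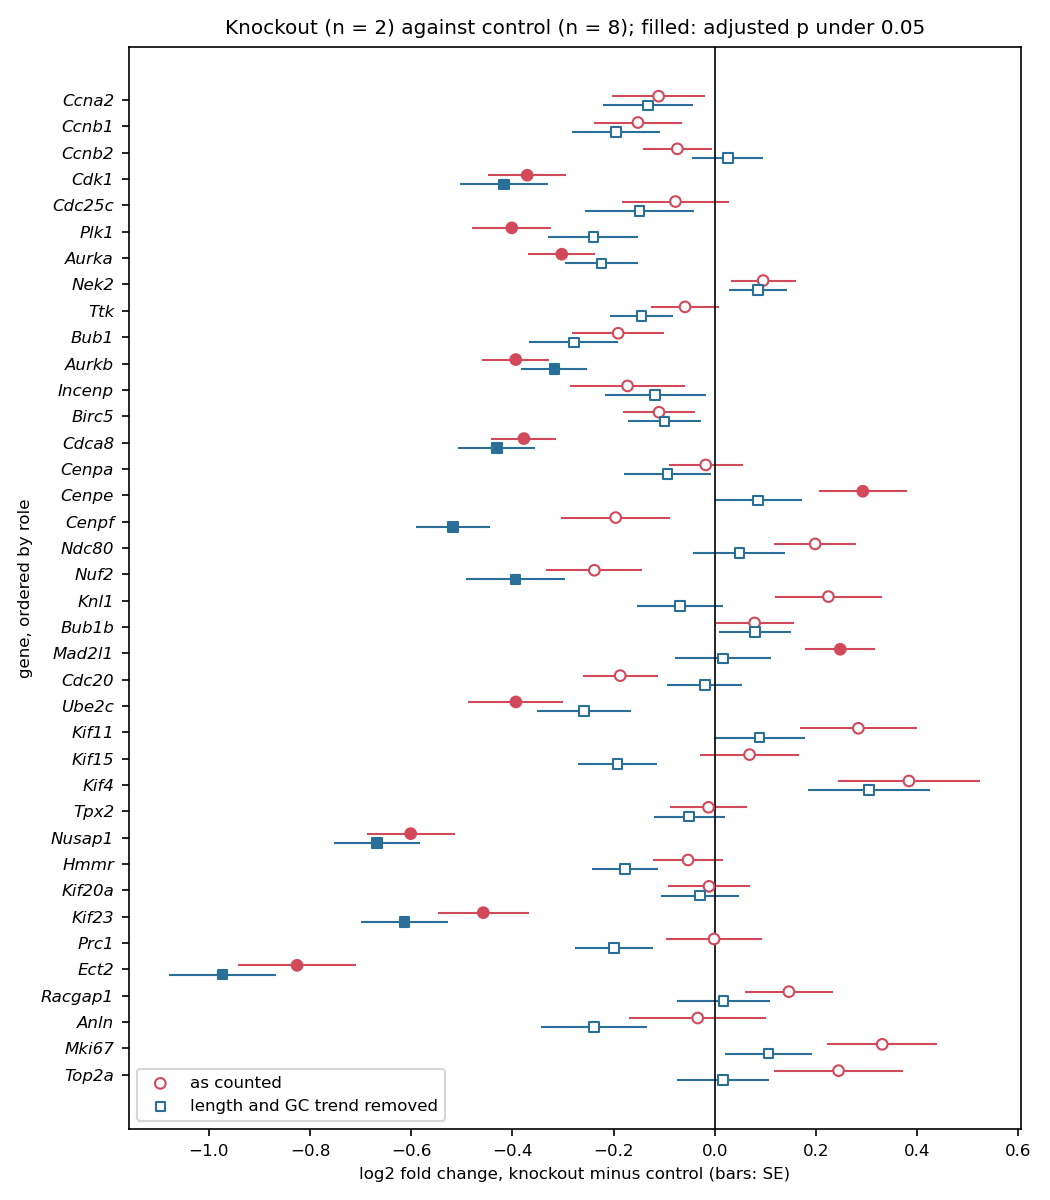
Log2 fold change of knockout (n = 2) minus control (n = 8) for each of the 38 genes (rows, by role), with SE as bars. Circles are values as counted, and squares follow removal of a trend on annotated exon length and GC content. Filled symbols mark an adjusted p under 0.05. Ect2, Nusap1, Kif23, Cdca8, Cdk1 and Aurkb are filled in both, whereas Cenpe and Mad2l1 are filled as counted only and Cenpf and Nuf2 after the removal only.

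The 2 knockout libraries differed from each other by transcript length. Knockout 2 was above knockout 1 for 24 of the 38 genes and at least 1.2 times it for 10 (Top2a, Kif4, Mki67, Cenpf, Anln, Incenp, Kif11, Kif15, Prc1 and Ect2), and knockout 1 was at least 1.2 times knockout 2 for 1 (Cdc25c). Across the 38 genes, Spearman's rho between transcript length and the log2 ratio of a library to the control mean was 0.10 for knockout 1 and 0.63 for knockout 2. Across 7535 genes with mean expression at or above 4 on the log2 CPM scale it was 0.12 and 0.57, and for single controls it ran from -0.47 to 0.31. These are descriptions across genes of the same libraries. The 13 mitotic genes with the shortest transcripts (970.3 to 2430.00 bases) had a median change of -0.19 with 5 called lower and 0 higher, and the 13 longest (3853 to 10477 bases) one of 0.07 with 2 lower and 1 higher.

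**Figure D4:**
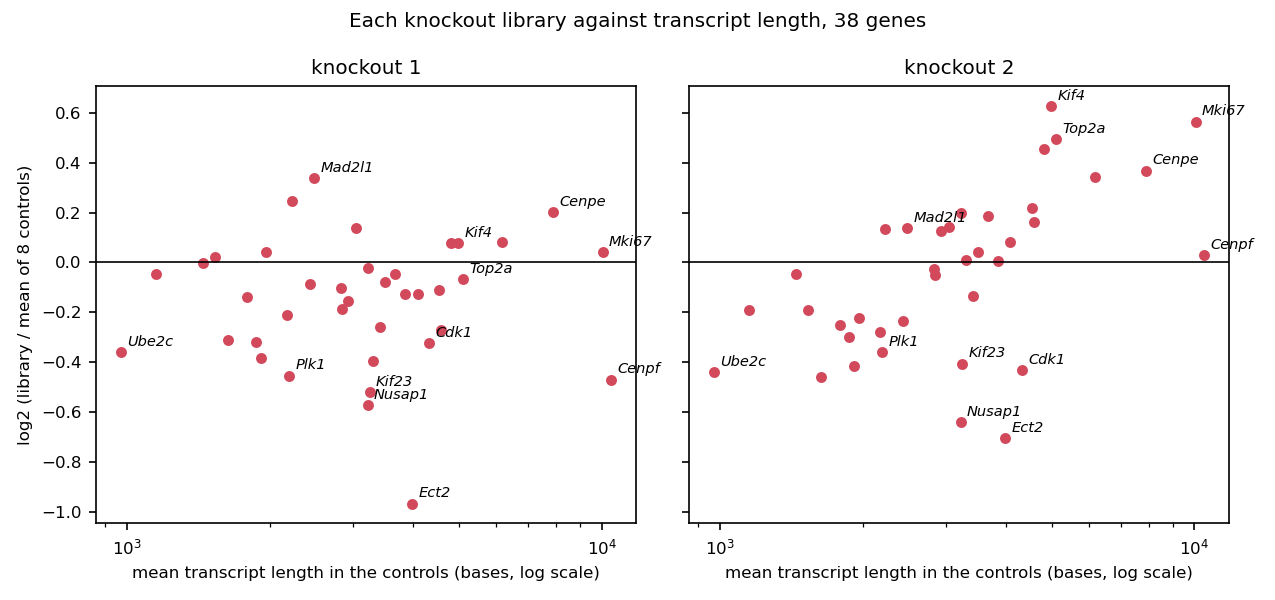
Log2 ratio of each knockout library to the mean of the 8 controls (vertical axes) against the count-weighted transcript length in bases (horizontal axes, log scale) for the 38 genes. In knockout 2 Kif4, Mki67, Top2a and Kif11 lie highest and the points rise with length (rho 0.63), with rho 0.10 in knockout 1, and Ect2, Nusap1 and Kif23 lie low in both.

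A trend on length and GC content was then removed within each library, with length taken as all annotated exon bases of a gene. That length differs from the transcript length used above (for Mad2l1 8390 bases against 2476). With that trend removed, 8 of the 38 were called lower and 0 higher, beside 1141 and 1203 of 18651 genes tested. Ect2 (-0.97), Nusap1 (-0.67), Kif23 (-0.61), Cdca8 (-0.43), Cdk1 (-0.42) and Aurkb (-0.32) were called in both fits. Plk1, Aurka and Ube2c were no longer called, at -0.24 (edgeR adjusted p = 0.101), -0.22 (0.0630) and -0.26 (0.0902). Cenpe moved to 0.09 and Mad2l1 to 0.02, neither called. Cenpf, with the longest transcript of the 38, moved from -0.20 to -0.52 and was called (edgeR adjusted p = 0.00117), as was Nuf2 at -0.39 (edgeR adjusted p = 0.0211). Without knockout 2 the 38 changes ran from -0.95 to 0.35 with a median of -0.10. Without knockout 1 they ran from -0.71 to 0.62 with a median of -0.02. Each of these fits leaves 1 knockout library, so no calls are counted. With the replicate number as a block, 0 of the 38 and 0 of all genes were called. In that fit controls 3 to 8 each had a block of their own, so the contrast rested on controls 1 and 2. A gene not called there may still differ. With all 3 groups in one fit 3 of the 38 were called lower and 0 higher, beside 1289 and 1693 of 20750 genes tested.

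Of the 8 genes called lower that had a promoter window, 7 held a CHR match and 7 a CCAAT match. Of the 22 not called, 18 and 16 did. Of the 2 called higher, 0 held a CHR match and 1 a CCAAT match. The differences between these shares were not tested.

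In the other lists of mitotic genes, calls between knockout and control went both ways, and are read beside the 7.24% called lower and 7.62% called higher of all genes. Of 31 other kinetochore and checkpoint genes, 7 were lower and 2 higher. The 3 with the smallest p were the centromere proteins Cenpu, at -0.90 ± 0.10, and Cenph, at -0.51 ± 0.09, and the kinetochore subunit Pmf1, at -0.37 ± 0.08. Of 21 other spindle and cytokinesis genes, 2 were lower and 1 higher: Tacc3, a partner of Aurka at the spindle, at -0.46, the motor Kif18a at -0.30, and Psrc1 at 1.01. Of 17 genes of the anaphase-promoting complex 4 were lower and 0 higher, with its small subunits Anapc11 at -0.61, Anapc13 at -0.58 and Anapc16 at -0.36.

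Of 8 condensin genes 1 was higher, Ncapg2 at 0.69 with a knockout mean of 285 ± 124 CPM (SD, n = 2), while Ncaph (-0.23) and Ncapd2 (0.23) were not called. Of 13 cohesin genes 2 were higher and 1 lower. Stag2 and Stag1 rose by 1.04 and 0.80, with knockout means of 223 ± 98.3 and 167 ± 83.4 CPM that rest on 2 unlike libraries, and Smc1a was at -0.20. Of 14 regulators of the G2 to M switch 2 were higher and 0 lower: Chek1, which restrains CDK1, at 0.41, and Mastl, which protects CDK1 substrates from phosphatase, at 0.40, while Bora (-0.21) was not called. Of 16 genes of the transcription complexes, 2 were higher and 3 lower. The pocket protein Rbl2, which represses cell cycle genes in resting cells, rose by 1.04 ± 0.13, Lin54, the DNA-binding subunit that recognises the CHR, rose by 0.39, and the NF-Y subunit Nfyc was at -0.27.

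For S phase genes 2 of 31 were lower and 0 higher, beside 9 and 2 of the 38 mitotic genes. These were Rrm2, a subunit of ribonucleotide reductase, at -0.52 ± 0.07, and Tyms, which makes thymidylate, at -0.22 ± 0.06, and the licensing factor Cdt1 (-0.22) was not called. The median S phase change was -0.06. Of 19 G1 genes 2 were higher and 2 lower, with the CDK inhibitor Cdkn1a (p21) at 0.98, Cdk4 at -0.29 and the cyclin Ccne2 at -0.48. The difference in the shares of these lists was not tested.

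Summed levels of some marker lists of other cells lay above the control range in at least 1 knockout library. The B cell sum was 829.0 and 667.5 CPM, above the control range of 393 to 471.5, with Ighm holding most of the sum and 1 of 7 tested B cell genes called higher. The sum of 5 erythroid genes was 77.0 CPM in knockout 1 and 8.26 in knockout 2, beside 0.510 to 11.3 in the controls, and 2 of the 5 genes were called higher. The 6 myeloid genes summed to 66.2 CPM in knockout 1 and 42.4 in knockout 2 against 24.9 to 43.2, and none was called. For the erythroid and myeloid sums only knockout 1 lay above the controls. The sums of dendritic (4.79 and 3.92 CPM), NK (2.70 and 2.74) and thymocyte genes (0.719 and 1.36) were low, with Siglech and Dntt at 0. The part of these cells in the changes of the mitotic genes was not tested.

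Knockout against naive shares libraries with both other comparisons, so its values are only set beside them. Against the naive libraries, 37 of the 38 genes were called higher in the knockouts and 0 lower, where 44.7% of the 19776 genes tested were called and 21.1% as higher. No knockout library overlapped the naive ones for 37 of the 38, all of them higher in the knockouts. Among all genes tested, 46.4% had no overlap in either direction and 22.4% lay higher in the knockouts. The median change was 1.30 beside -0.08 over all genes. The gene not called was Ect2, at 0.51 ± 0.21 (edgeR adjusted p = 0.0637), while its value for control against naive was 1.31. Kif23 had the smallest value, 0.50 ± 0.14, which was called (edgeR adjusted p = 0.0106), Nusap1 was at 0.72, and Mki67 had the largest value, 1.76 ± 0.22.

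The split of each gene's counts between its annotated transcripts was tested apart from its level. Over the 38 genes the deposited transcript table holds 234 transcripts, of which 105 are annotated as protein-coding, 80 as retained introns, 19 as targets of nonsense-mediated decay and 30 as other processed transcripts. Coding transcripts held 93.4 ± 0.594% of their counts in the naive libraries, 93.7 ± 0.434% in the controls (SD, n = 8 each) and 92.8 and 93.3% in the knockouts. Transcripts annotated for nonsense-mediated decay held 2.45 ± 0.314% in the naive libraries, 2.61 ± 0.430% in the controls and 2.74 and 3.27% in the knockouts, within the control range of 2.09 to 3.49%. For Cenpa the coding share was only 24.0, 25.01 and 23.6% in the 3 groups, with most other counts given to the decay-annotated Cenpa-202 and Cenpa-204. For Incenp the retained-intron transcript Incenp-209 held 70.2 to 76.0% in the controls. How the authors' tool divided reads that fit several transcripts sets these shares.

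The usage test was of limited sensitivity between control and naive and of almost none between knockout and control when checked on data with known answers. Between control and naive, 0 of 33 testable genes were called for transcript usage (edgeR diffSpliceDGE, Simes and Benjamini-Hochberg), where 10.4% of the 8581 genes tested were, and 5 of the 33 had an unadjusted p under 0.05. A likelihood ratio fit called 5 and voom with diffSplice 6, where these fits called 46.0% and 42.8% of the 8581 genes. The smallest p belonged to Racgap1 (edgeR adjusted p = 0.0870), whose transcript Racgap1-201 held 5.70 to 36.3% of counts in the naive libraries and 6.69 to 9.51% in the controls. Aurka, Cenpf, Bub1b, Knl1 and Cdca8 followed. In Cenpf the short coding transcript Cenpf-203 held 3.22 to 32.7% in the naive libraries and 2.32 to 12.2% in the controls, and in Knl1 the transcript Knl1-204 held 4.52 to 33.2% and 1.62 to 10.8%. The ranges overlap in each case, and the leading transcripts of Aurka, Bub1b and Cdca8 held at most 1.11% of their gene in any naive or control library.

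Between knockout and control, 1 of 35 testable genes was called for usage, where 1.90% of the 9653 genes tested were. Because of that low sensitivity, neither this call nor the lack of others is relied on, and the shares that follow are descriptions. The gene called was Cdc20, through Cdc20-203, a transcript annotated for nonsense-mediated decay that held 0.305 and 0.250% of the gene's counts in the knockouts (1.35 and 1.02 CPM) and was listed at 0 in all 8 controls and all 8 naive libraries. It entered the test only through the knockouts, so it had to differ. The main transcript Cdc20-201 held 99.3 and 99.4% in the knockouts and 99.4 to 99.7% in the controls. For Ect2, the member with the largest fall, Ect2-207 held 19.3 and 2.78% in the knockouts against 22.03 to 75.4% in the controls, outside that range in both. Ect2-202 held 76.7 and 69.0% against 16.8 to 73.5%. Tpx2, Cenpf, Racgap1 and Ndc80 followed, with Tpx2-201 at 3.42 and 5.61% against 5.33 to 47.7% and Cenpf-206, a retained intron, at 1.46 and 0.892% against 0.0340 to 0.448%. Ndc80-202 held 43.9% in knockout 1 and 0 in knockout 2, so the 2 knockout libraries were unlike in it. A gene that was not called for usage may still differ, since shares of a transcript varied several-fold between libraries of a group.

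Several of the 38 genes share exon sequence with a gene on the opposite strand, and the labels do not state whether reads were counted by strand. The share of a gene's exon bases concerned was 29.3% for Kif20a (with Cdc23), 22.8% for Ube2c (with Tnnc2), 15.1% for Kif4 (with Pdzd11), 12.7% for Cdc25c (with Gm3550), 12.5% for Ccna2 (with Exosc9), 11.1% for Prc1 (with Rccd1) and 7.09% for Plk1 (with Gm44985). For these genes, counts from the partner cannot be told apart from their own in the shared stretch. Ect2, Kif23, Cdk1, Aurkb, Aurka, Cenpe, Mad2l1 and Mki67 had no such overlap in GENCODE M21.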

How the data were processed

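Gene and transcript estimated counts were analysed, as deposited by the authors in whole numbers. Per the submitters' processing notes, the tools were StringTie 2.1.0, STAR 2.7.1a, DESeq2 1.30.1, SAMtools 1.9 and R 4.0.5, and the builds mm10 and mm39. Which build served which step, and whether strand was used in counting, is not given in the sources used here. Per the labels' protocols, RNA was isolated with a micro column kit and amplified with a polyA-based low-input kit, which can favour some transcript lengths. All 55536 Ensembl gene identifiers of the deposited table are in GENCODE M21, the source of names, coordinates (GRCm38) and transcript classes. Rows with numeric identifiers (26248, holding 0.0513 to 0.132% of counts) name no gene and were left out, and 97 other rows held 0 counts. Gene values equalled the sums of their transcripts for 55536 of 55536 genes.

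In R 4.3.3, edgeR 4.0.16 was used for each pair of groups on all genes (filterByExpr with a minimum count of 10, TMM, robust quasi-likelihood test, prior count 2, Benjamini-Hochberg, called under 0.05). Levels are CPM scaled by TMM over all 18 libraries. Transcript usage was tested with diffSpliceDGE. Each test was checked on simulated counts. The gene test recovered most 2-fold changes. For knockout against control it missed many 1.5-fold changes, and more of them with the trend removed. It gave many false calls where a trend on exon length was added and left uncorrected but few with the trend removed. The usage test recovered part of the altered genes for control against naive and almost none for knockout against control, so its calls there are not relied on.

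The members and the other gene lists were chosen with earlier results of these data known. One marker list, of resting T cells, is not reported here. Levels are given as lowest, median and highest for groups of 8 and as both values for the knockouts. Genes chosen for this were Mki67, Cdk1, Ccnb1, Plk1, Aurkb and Top2a. Added were the 4 largest and 4 smallest log2 fold changes in knockout against control and the 3 largest and 3 smallest in control against naive. From each other list, up to 3 genes with the smallest p in knockout against control and up to 2 in control against naive were named. Usage was described for up to 6 genes with the smallest p in each comparison. Alternatives were leaving out each library, controls 3 to 8 only, removal of a length and GC trend, limma 3.58.1 voom with quality weights, the replicate block, all groups fitted at once, expression at or above 4 in mean log2 CPM, testing without the low-count filter, scaling by RLE or by totals alone, DESeq2 1.42.0, and a log2 change of 1 or more in size. Whether same-numbered libraries are paired was examined by correlation. Over 12935 genes, deviations from the group mean correlated between -0.15 and 0.24 for same-numbered control and naive libraries. The own number gave the best match for 1 of 8, and other numbers gave up to 0.22. For knockout and control the values were 0.14 and 0.17, with up to 0.16 for other numbers, the own number being best for 1 of 2. With 2 knockout libraries this cannot decide whether they are paired with controls.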

Additional observations from a re-analysis of the deposited data

Results flagged for a closer look

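Of 76 groups of 8 libraries examined (38 genes in the naive and the control group), 4 held 1 library set apart from the other 7 by Dixon's criterion, and chance alone sets apart about 1 in 20 groups. Ndc80 was at 115.9 CPM in naive 2, where the next library was at 83.0 CPM. Bub1b was at 453.3 CPM in control 3, with the next control at 405 CPM. Kif15 was at 194.4 CPM in control 3, with the next at 164 CPM, and Hmmr at 282.1 CPM in control 3, with the next at 251 CPM. Naive 2 was the highest naive library for 38 of the 38 genes and control 3 the highest control for 27.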

How the results depend on the processing

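For control against naive, all 38 genes were called higher and 0 lower in every alternative except a log2 change of 1 or more in size. That limit left 36, beside 1422 of all 17078 genes. All 988 values of single genes kept their side of the threshold. For knockout against control, 2 genes were called higher and 9 lower. Brackets give the genes called in the same direction among all tested. Called higher were 4 with DESeq2 (1922 of 18651) and 1 without the low-count filter (1231 of 28303). The number was 0 with all groups in one fit (1693 of 20750) and with voom (1161 of 18651). It was also 0 with the length and GC trend removed (1203 of 18651) or at a log2 change of 1 or more in size (379 of 18651). Called lower were 3 with all groups in one fit (1289 of 20750) and 0 at a log2 change of 1 or more in size (322 of 18651). With the replicate block, 0 were called higher and 0 lower, and 0 of all genes were called. That contrast rested on controls 1 and 2 alone, so the loss of a call there carries little weight. Whether the replicate numbers pair the knockouts with controls is not known. With this block 38 stayed higher in control against naive (5445 of 17078) and 30 in knockout against naive (1177 of 19776). Leaving out 1 control gave 0 (without control 7) to 3 called higher, where 1154 to 1452 of all genes were. It gave 9 called lower each time, where 1096 to 1406 of all genes were. Leaving that log2 limit aside, among fits with both knockout libraries, Ect2, Nusap1 and Kif23 lost their call only with the replicate block. Aurkb, Cdca8 and Cdk1 lost it with the block and with all groups in one fit. Plk1, Aurka and Ube2c lost it in these fits and with the length and GC trend removed. Cenpe and Mad2l1 lost it in all of these, with voom and without some single controls. Cenpe also lost it without the low-count filter, and Mad2l1 with controls 3 to 8 only. Calls were gained by Mki67 and Kif4 with DESeq2, and by Cenpf and Nuf2 with the trend removed. Mki67 also gained one without control 1, with controls 3 to 8 only and at mean log2 CPM of at least 4. No gene called in the main fit changed sign. For knockout against naive, 37 were called higher, and 37 to 38 without 1 naive library, where 3777 to 4189 of all genes were. Transcript usage calls for control against naive went from 0 to 5 with the likelihood ratio fit, 6 with voom and 1 with at least 10 counts per transcript. Of all genes, 46.0%, 42.8% and 14.3% were called in these fits. Without 1 library 0 to 1 were called, where 7.49 to 9.52% of all genes were. For knockout against control they went from 1 to 7 with voom, where 965 of all 9653 genes were called, beside 183 in the main fit. They stayed at 1 without any 1 control, where 1.72 to 2.08% of all genes were called. The main call, Cdc20, had to differ, so a count that stays at 1 is no sign of stability. The usage test had very low sensitivity in this comparison. The causes were not tested. As to depth, the 38 genes held 22.3 CPM or more on average in each group.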
